A study of Mus musculus with 18 samples.

Results

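RNA of Zfp831, Scml4, Cacna1i, Xkrx, Ppl and Ceacam2 was detected in bulk preparations of purified, unstimulated splenic B cells. The part of other cells in it was not tested. These transcripts were among those that dropped furthest within 4 h of a Toll-like receptor (TLR) agonist. These 6 genes, of 23420 in the files, were chosen by the size of their falls with CpG or CL097 in these same libraries. Their falls are therefore given as a description: the choice of the genes fixed that they would be called lower, and no p-value is used to support the falls. How the falls were distributed over the 3 responses is likewise only described, because the choice on CpG or CL097 shaped it. How the genes stood in the domain-swapped Tlr997 against its control is given as well, although those libraries also served the choice. What their relatives did is given beside it.

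RNA was sequenced from B cells of MRL/lpr mice aged 5 to 7 weeks per the labels, a lupus-prone strain with the Fas lpr mutation, in 18 libraries of 6 groups with 3 libraries each. In the Tlr7-/- arm, females carried either Tlr997, a TLR9 with the TIR signalling domain of TLR7 knocked into the Tlr9 locus, or a single functional Tlr9 copy (Tlr9+/-, called Tlr9het here), and the B cells were left unstimulated or given the TLR9 agonist CpG, an unmethylated DNA oligonucleotide, at 10 µg/ml. In the Tlr9-/- arm, males carried Tlr779, a TLR7 with the TIR domain of TLR9, and the cells were left unstimulated or given the TLR7 agonist CL097 at 5 µg/ml. All cells were purified by negative selection with beads that also removed CD43+ cells and were held in culture for 4 h. Each chimeric receptor protein was present in B cells at a lower amount than the wild-type receptor, which Tlr9het was chosen to match for Tlr997. The sample titles give the control as Tlr9+/- Tlr7-/- while the treatment protocol writes Tlr9-/- Tlr7-/-, and the titles were followed. Receptor, agonist, sex and number of cells plated all changed between the arms, so their parts in a difference between CpG and CL097 cannot be told apart.

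Resting B cells are held in a quiescent state by transcription factors such as Klf2 and Foxo1 and by inhibitory surface receptors, and TLR7 and TLR9 drive them out of it through MyD88 and NF-κB. The 6 genes have unrelated products. Zfp831 encodes a C2H2 zinc finger protein and Scml4 a Polycomb-related protein of the Scm family. Cacna1i encodes the pore of the low-voltage-activated, T-type calcium channel Cav3.3, best known from thalamic neurons. Xkrx encodes a membrane protein of the XK family, which includes the phospholipid scramblase Xkr8. Ppl encodes periplakin, which links intermediate filaments to desmosomes in epithelia, and Ceacam2 an immunoglobulin-superfamily adhesion molecule closely related to the inhibitory receptor Ceacam1.

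The deposited values were log2 CPM, that is log2 of read counts relative to library size (CPM) after the authors' normalization, so each difference below is a log2 fold change. Summed back to CPM, the libraries came to between 991992 and 1004412, which is set by that normalization, and the depth of each library is unknown. The most common low value, -5.05, was taken as that of a gene with no read after voom's offset, which fixes an average scale on which 0 log2 CPM stands for about 16.1 reads. The lowest value of any of the 6 genes in a stimulated library stood for about 7 reads and the highest for about 318, so the falls were not cut off at 0. The 10 B cell markers summed to between 6730 and 8600 CPM in the 9 unstimulated libraries. With CpG they summed to 2220 to 2290 CPM in Tlr9het and 3260 to 3810 in Tlr997, and with CL097 to 3140 to 3820 in Tlr779. The markers did not move together. With CpG in Tlr9het the log2 fold changes were -3.73 for Cd79b and -3.27 for Cd79a, but 0.13 for Ly86 and 0.54 for Pax5. Between Tlr997 and Tlr9het with CpG, Ms4a1 differed by 1.26 and Cd79a by 0.04. The sums therefore do not measure the share of B cells. Tlr7 reached 6.61 to 7.33 log2 CPM in unstimulated Tlr779, 4.81 to 5.18 in unstimulated Tlr997 and 2.68 to 3.48 in unstimulated Tlr9het. Tlr9 lay between 6.93 and 8.08 in all groups, Tlr779 included. Reads from a chimera fall on both receptor genes, so these levels check the labels only in part.

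In unstimulated Tlr9het B cells, per kilobase of exon, Xkrx reached 11 ± 0.956 CPM (SD, n = 3) and Scml4 10.3 ± 0.241, 2 genes whose levels did not differ beyond that spread. Zfp831 followed at 7.67 ± 0.417. Ceacam2 at 4.39 ± 0.353, Ppl at 4.08 ± 0.434 and Cacna1i at 3.89 ± 0.35 formed the lower end, where Ceacam2 and Ppl, and Ppl and Cacna1i, did not differ beyond their SD. Xkrx was also the highest of the 6 per kilobase in unstimulated Tlr997, at 12.3 ± 2.71, and in unstimulated Tlr779, at 13.6 ± 1.92.

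All 6 genes were called lower in each response, a call being an adjusted p under 0.05 with a log2 fold change beyond 0.5 in limma. Of all genes tested, 28.2% were called lower and 29.7% higher with CpG in Tlr9het, 26.0% and 29.6% with CpG in Tlr997, and 23.6% and 22.7% with CL097 in Tlr779. The genes were selected on these contrasts, and nothing is read from the counts. In each response every stimulated library also lay below every unstimulated one for 6 of 6 genes, as it did for 38.5%, 33.3% and 34.9% of all genes tested in the same order. The median change of the 6 genes was -4.98 with CpG in Tlr9het, -5.34 with CpG in Tlr997 and -3.53 with CL097 in Tlr779, beside medians over all genes of 0.04, 0.07 and -0.02. Among the genes called lower the medians were -1.22, -1.20 and -1.01.

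**Figure D1:**
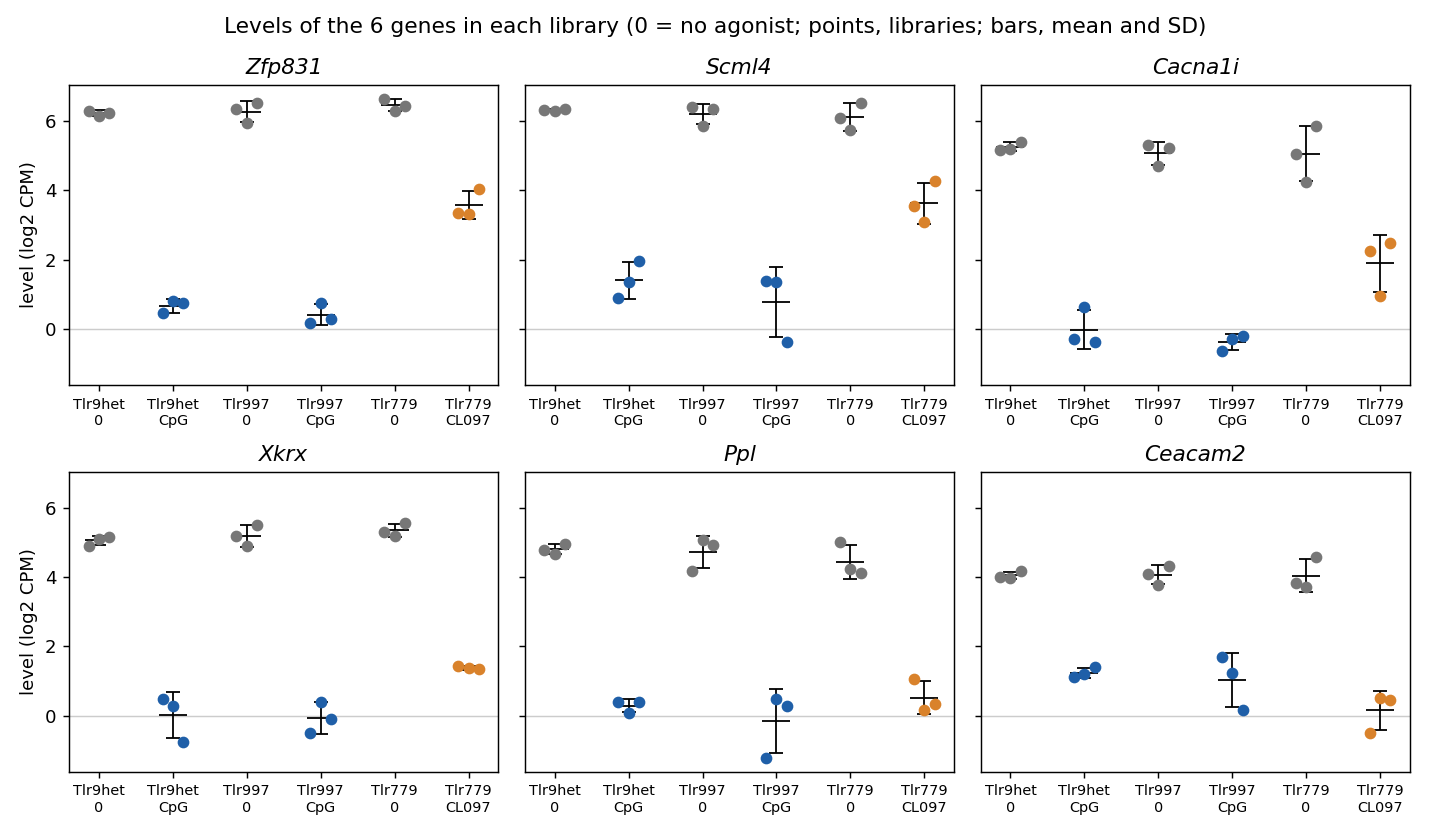
Level of each gene in log2 CPM in the 18 libraries (points), with the group mean and SD (bars); 0 under a group name marks cells without agonist. Zfp831 and Scml4 stayed above 3 log2 CPM in all CL097 libraries and below 2 in all CpG libraries, whereas Ceacam2 was lowest with CL097.

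Zfp831 on chromosome 2 (chr2:174643534-174710832, plus strand, GRCm38) fell the furthest of the 6 with CpG. Its level was 6.31, 6.15 and 6.24 log2 CPM in the 3 unstimulated Tlr9het libraries and 0.44, 0.79 and 0.74 with CpG. In Tlr997 it went from 6.36, 5.94 and 6.51 to 0.17, 0.76 and 0.30, and in Tlr779 from 6.65, 6.30 and 6.45 to 3.35, 3.33 and 4.05 with CL097. Thus the unstimulated levels overlapped among the genotypes, and the CL097 libraries ended more than 2 log2 units above every CpG library. The log2 fold changes were -5.57 (SE 0.18), -5.86 (SE 0.18) and -2.89 (SE 0.20), which left 2.1%, 1.72% and 13.5% of the unstimulated level. Among genes with a mean over 2 log2 CPM this was the 2nd largest fall of 9378 in both CpG responses and the 21st of 9390 with CL097.

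Scml4, the Polycomb-related gene on chromosome 10 (chr10:42860370-42960780, plus strand), behaved similarly but with more scatter. Without agonist it was at 6.31, 6.28 and 6.35 log2 CPM in Tlr9het, 6.42, 5.86 and 6.35 in Tlr997 and 6.11, 5.73 and 6.53 in Tlr779. With CpG it was at 0.89, 1.34 and 1.96 in Tlr9het and at 1.39, 1.35 and -0.39 in Tlr997, and with CL097 at 3.54, 3.10 and 4.26. One Tlr997 library with CpG lay well below the others, and the SD of that group was 1.02 against 0.03 in unstimulated Tlr9het. The log2 fold changes were -4.92 (SE 0.40), -5.43 (SE 0.40) and -2.49 (SE 0.30), and the last was the smallest fall of the 6 genes with CL097, leaving 17.8%.

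Cacna1i, the T-type calcium channel gene on chromosome 15 (chr15:80287238-80398279, plus strand), was at 5.16, 5.21 and 5.40 log2 CPM in unstimulated Tlr9het and at -0.29, 0.62 and -0.39 with CpG. Its Tlr997 values were 5.30, 4.70 and 5.22 without and -0.65, -0.30 and -0.20 with CpG. In Tlr779 it was at 5.07, 4.26 and 5.86 without and at 2.24, 0.95 and 2.47 with CL097. The lowest of the 3 libraries on either side in Tlr779 carried replicate number 2, and the differences between libraries of the same number were closer together, from -2.83 to -3.39. The log2 fold changes were -5.28 (SE 0.26), -5.46 (SE 0.26) and -3.17 (SE 0.48), and 2.58%, 2.27% and 11.1% of the level remained.

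Xkrx, the XK family gene on the X chromosome (chrX:134149043-134162076, minus strand), was at 4.91, 5.11 and 5.15 log2 CPM in unstimulated Tlr9het and at 0.48, 0.29 and -0.75 with CpG. Its Tlr997 values were 5.18, 4.89 and 5.52 without and -0.51, 0.41 and -0.09 with CpG. In Tlr779 it went from 5.30, 5.19 and 5.57 to 1.45, 1.36 and 1.34, the tightest stimulated group of any of the 6 genes. The fall of -3.97 (SE 0.15) with CL097 was the largest of 9390 genes with a mean over 2 log2 CPM, and those with CpG, -5.05 (SE 0.31) and -5.26 (SE 0.31), were each the 5th of 9378. Xkrx lies within the span of Nox1 on the same strand, but the annotated exons of the 2 genes share 0 bases and Nox1 stayed at or below -0.08 log2 CPM in every library.

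Ppl, the periplakin gene on chromosome 16 (chr16:5086291-5132421, minus strand), was at 4.79, 4.67 and 4.97 log2 CPM in unstimulated Tlr9het and at 0.38, 0.08 and 0.40 with CpG. Its Tlr997 values were 4.19, 5.07 and 4.92 without and -1.23, 0.47 and 0.28 with CpG. In Tlr779 it was at 5.00, 4.23 and 4.11 without and at 1.05, 0.17 and 0.33 with CL097. The stimulated libraries of all 3 responses therefore overlapped in level. The log2 fold changes were -4.52 (SE 0.37), -4.89 (SE 0.37) and -3.93 (SE 0.32), which placed Ppl 14th and 7th with CpG and 2nd with CL097.

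Ceacam2 on chromosome 7 (chr7:25516042-25539857, minus strand) was the only one of the 6 whose fall was larger in the CL097 response than in either CpG response. Its level was 4.01, 3.97 and 4.18 log2 CPM in unstimulated Tlr9het and 1.12, 1.21 and 1.40 with CpG. In Tlr997 it was 4.10, 3.79 and 4.33 without and 1.69, 1.23 and 0.18 with CpG, and in Tlr779 3.83, 3.72 and 4.58 without and -0.51, 0.51 and 0.46 with CL097. All CL097 libraries lay below all Tlr9het CpG libraries, although they overlapped with those of Tlr997. The log2 fold changes were -2.81 (SE 0.30), -3.04 (SE 0.30) and -3.89 (SE 0.35), leaving 14.3%, 12.1% and 6.76%. With CpG these were the 199th and 124th largest falls among genes with a mean over 2, and with CL097 the 3rd.

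The value of Ceacam2 is uncertain in one respect. Of the 3861 stretches of 75 bases, the read length, in its transcripts, 1487 (38.5%) also occur in transcripts of Ceacam1 (chr7:25461707-25477603, minus strand), so that reads can be shared between the paralogs. Ceacam1 went from 3.32, 3.70 and 3.64 log2 CPM to 0.62, 0.05 and 1.49 with CpG in Tlr9het, from 3.66, 3.72 and 4.16 to 1.24, 0.66 and 0.35 in Tlr997, and from 3.21, 3.38 and 3.87 to -0.22, -0.25 and 0.25 with CL097. Its log2 fold changes of -2.84 (SE 0.33), -3.09 (SE 0.33) and -3.56 (SE 0.26) were close to those of Ceacam2 in each response. The non-coding gene 4732471J01Rik runs over both on the opposite strand, shares 0 exon bases with either and did not exceed 0.60 log2 CPM in any library. Zfp831, Cacna1i, Scml4 and Ppl had 0 stretches in common with another gene, and Xkrx had 12 of 3015.

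**Figure D2:**
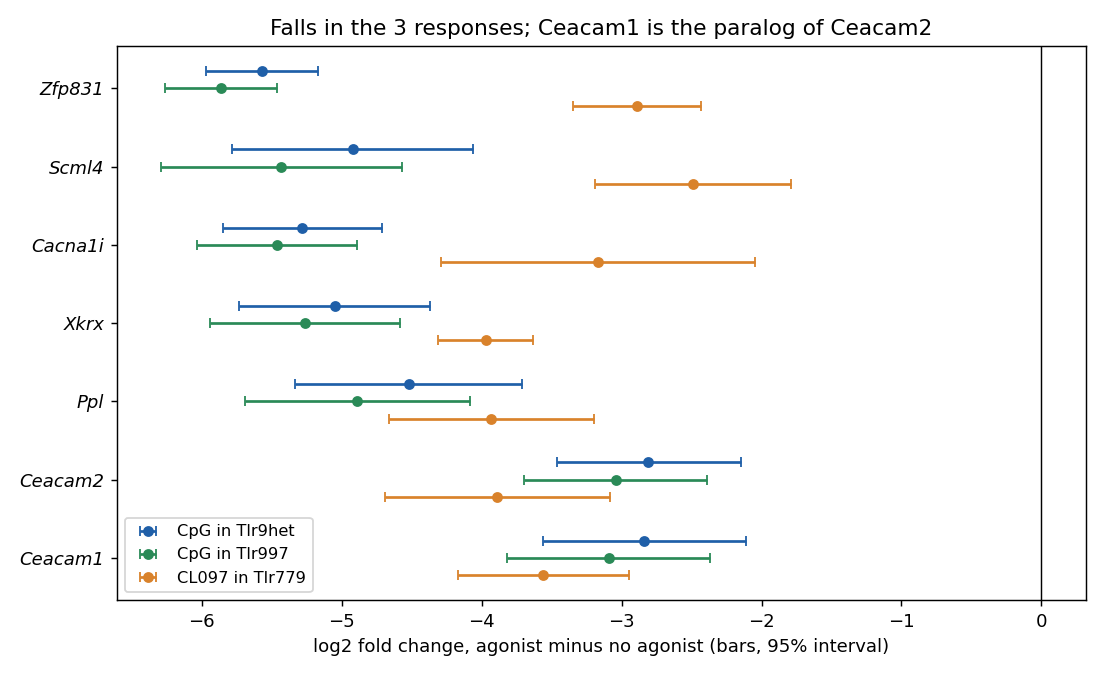
Log2 fold change of each gene with agonist, with its 95% interval, in the 3 responses; Ceacam1 is shown as the paralog of Ceacam2. The CL097 change was the smallest of the 3 for 5 of the 6 genes and the largest for Ceacam2.

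Promoter sequences, 250 bases before to 50 after the annotated start, were found in RefSeq (GRCm38.p6) for 3 of the 6 genes. The windows of Xkrx and Ceacam2 lie upstream of the gene spans given above, which are from GENCODE, so the annotations place these starts differently. The promoters of Cacna1i (chr15:80286988-80287287, plus strand) and Xkrx (chrX:134162910-134163209, minus strand) are shown because both genes fell about equally with CpG, to around 0 log2 CPM. Capitals mark E-boxes (CANNTG, searched on both strands) and, in Xkrx, the AP-1 letters TGANTCA. An E-box occurs in 72.3% of the 32851 RefSeq promoters and the AP-1 letters in 7.81%.
Cacna1i: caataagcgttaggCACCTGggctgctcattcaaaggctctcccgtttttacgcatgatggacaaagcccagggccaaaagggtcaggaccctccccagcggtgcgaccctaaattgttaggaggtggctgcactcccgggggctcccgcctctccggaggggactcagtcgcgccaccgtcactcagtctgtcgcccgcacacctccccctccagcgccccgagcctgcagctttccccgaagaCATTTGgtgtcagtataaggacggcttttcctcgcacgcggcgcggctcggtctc
Xkrx: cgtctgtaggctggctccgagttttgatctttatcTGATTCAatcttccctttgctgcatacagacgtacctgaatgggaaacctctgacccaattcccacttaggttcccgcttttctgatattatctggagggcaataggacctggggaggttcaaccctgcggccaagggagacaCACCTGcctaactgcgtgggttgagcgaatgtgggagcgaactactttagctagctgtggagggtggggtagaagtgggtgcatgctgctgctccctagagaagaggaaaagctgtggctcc
Cacna1i held 2 E-boxes at a GC content of 62.7%, and Xkrx 1 E-box and 1 AP-1 match at 52.7%, the median of all promoters. The GC box (GGGCGG, 35.7% of promoters), the CRE (TGACGTCA, 1.79%), the FOXO letters TGTTTAC (3.65%) and the TATA box (TATAAA, 13.6%) had no match on either strand in these windows.

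The promoters of Ceacam2 (chr7:25539955-25540254, minus strand) and Ceacam1 (chr7:25477576-25477875, minus strand) are shown for the likeness of a pair that fell side by side. Their longest common run, 21 bases, is in capitals.
Ceacam2: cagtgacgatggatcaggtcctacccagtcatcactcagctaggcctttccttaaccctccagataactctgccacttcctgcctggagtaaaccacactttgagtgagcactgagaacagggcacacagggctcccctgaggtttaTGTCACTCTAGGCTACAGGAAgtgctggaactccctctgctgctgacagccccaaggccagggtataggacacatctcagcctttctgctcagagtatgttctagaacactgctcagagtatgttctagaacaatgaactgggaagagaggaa
Ceacam1: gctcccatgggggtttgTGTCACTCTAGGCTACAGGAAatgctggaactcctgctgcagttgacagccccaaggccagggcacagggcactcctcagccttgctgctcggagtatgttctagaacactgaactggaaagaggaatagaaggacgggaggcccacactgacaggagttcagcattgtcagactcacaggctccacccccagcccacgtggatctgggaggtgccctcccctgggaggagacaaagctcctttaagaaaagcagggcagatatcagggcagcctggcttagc
Over the best local alignment 113 of 129 columns (87.6%) were identical. Ceacam2 had 0 E-boxes in its window, and Ceacam1 had 2. A letter match describes the sequence and says nothing of which factor binds there.

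The size of the fall can be set side by side over the responses. The ratio of the log2 change with CL097 in Tlr779 to that with CpG in Tlr9het was 0.51 for Scml4, 0.52 for Zfp831, 0.60 for Cacna1i, 0.79 for Xkrx, 0.87 for Ppl and 1.38 for Ceacam2. Over the 2255 genes called lower in both, the median ratio was 0.74, and 474 of them (21%) changed more with CL097. Scml4, Zfp831 and Cacna1i lay below that median and Xkrx, Ppl and Ceacam2 above it. The change with CL097 minus that with CpG in Tlr9het was 2.69 log2 units for Zfp831 and -1.08 for Ceacam2. No test of these differences was made, because the agonist, the receptor and the sex of the mice changed together and the genes had been picked on both contrasts. Between the CpG responses the ratio of the changes, Tlr997 to Tlr9het, ran from 1.03 for Cacna1i to 1.10 for Scml4. The median ratio was 0.93 over the 2717 genes called lower in both. These ratios carry no interval and do not show that the falls were equal.

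**Figure D3:**
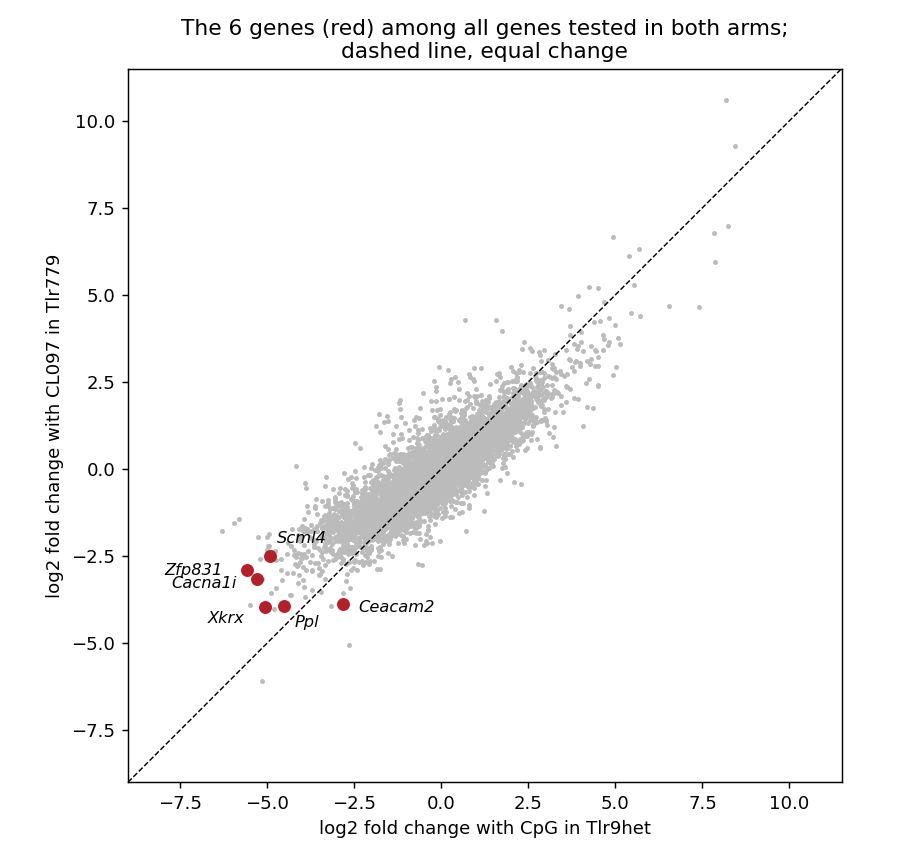
Log2 fold change of each gene tested in both arms with CpG in Tlr9het (horizontal) and with CL097 in Tlr779 (vertical); the 6 genes are red and the dashed line marks equal change. Of the 6, Zfp831, Cacna1i and Scml4 lie furthest above the line, at ratios of 0.52, 0.60 and 0.51, and Ceacam2 lies below it.

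Other genes stood beside these at the bottom of the ranking. Among genes with a mean over 2 log2 CPM, Rapgef4, a guanine nucleotide exchange factor for Rap activated by cAMP, fell the furthest with CpG, with changes of -6.29 in Tlr9het and -6.23 in Tlr997, beside -1.79 with CL097. B3gnt8 (-5.14), Lrrk2 (-5.0), A430078G23Rik (-5.0), Pgap1 (-4.99) and Inpp5d (-4.94), which encodes the inhibitory phosphatase SHIP1, completed the first 10 in Tlr9het with Zfp831, Cacna1i, Xkrx and Scml4. Scml4 held the 10th place there at -4.92, and the 11th gene, 4931429I11Rik, was at -4.86. In Tlr997 Susd3 (-4.80) took the place of Pgap1 and Inpp5d together with Ppl. With CL097 the first 10 held Xkrx, Ppl, Ceacam2 and Cacna1i beside Pde4a (-3.68), Rgs14 (-3.61), Spns2 (-3.52), Mxd4 (-3.49), Hhex (-3.28) and Cpt1a (-3.19). Cacna1i was the 10th at -3.17, just ahead of B3gnt8 at -3.15.

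The comparison of Tlr997 with Tlr9het was not itself among the contrasts that chose the genes, but it drew on the same 12 libraries. The difference of CpG responses is made of falls that the choice used, and the levels with CpG are ones that the choice had made low. Calls, or their absence, are therefore described and not read as an answer on whether the TIR domain changed the fall. In unstimulated B cells 0 of 6 genes were called, 0 of 6 reached an unadjusted p under 0.05, and the differences, Tlr997 minus Tlr9het, ran from -0.18 for Cacna1i to 0.14 for Xkrx (limma adjusted p from 0.83 to 0.99). Of all genes 0.0174% were called there. With CpG 0 of 6 were again called, 0 of 6 had an unadjusted p under 0.05, and 2.72% of all genes were called. The estimates ran from -0.07 for Xkrx to -0.61 for Scml4 (95% interval -1.47 to 0.24), with limma adjusted p from 0.46 to 0.95. Their sign rested on single libraries for 3 genes: without Tlr997 CpG replicate 1 Xkrx stood at 0.15 and Ppl at 0.09, without replicate 3 Ceacam2 stood at 0.21, and without Tlr9het CpG replicate 1 or 2 Xkrx stood at 0.17 or 0.07.

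For the difference of the CpG responses 0 of 6 genes were called and 0 of 6 had an unadjusted p under 0.05, against 1.54% called of all genes. That share is 177 genes, and it moved to 328 with the replicate block and to between 87 and 295 when 1 library was left out, with 0 of 6 genes called each time. The estimates ran from -0.18 for Cacna1i (95% interval -0.99 to 0.63) to -0.51 for Scml4 (-1.72 to 0.70), with limma adjusted p from 0.65 to 0.87. Zfp831 was the most precisely measured, at -0.29 with an interval from -0.85 to 0.28. The sign turned for the other 5 genes when 1 library was left out: to 0.08 for Scml4 and 0.19 for Ceacam2 without Tlr997 CpG replicate 3, to 0.17 for Ppl and 0.01 for Xkrx without Tlr997 CpG replicate 1, to 0.03 for Xkrx without Tlr9het CpG replicate 1 and to 0.14 for Cacna1i without Tlr9het CpG replicate 2. These intervals reach beyond the threshold of 0.5 on the negative side for every gene, so a difference of that size could not be told from 0 with 3 libraries a group. They also share the CpG libraries with the preceding contrast, and the 2 sets of estimates are not independent.

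**Figure D4:**
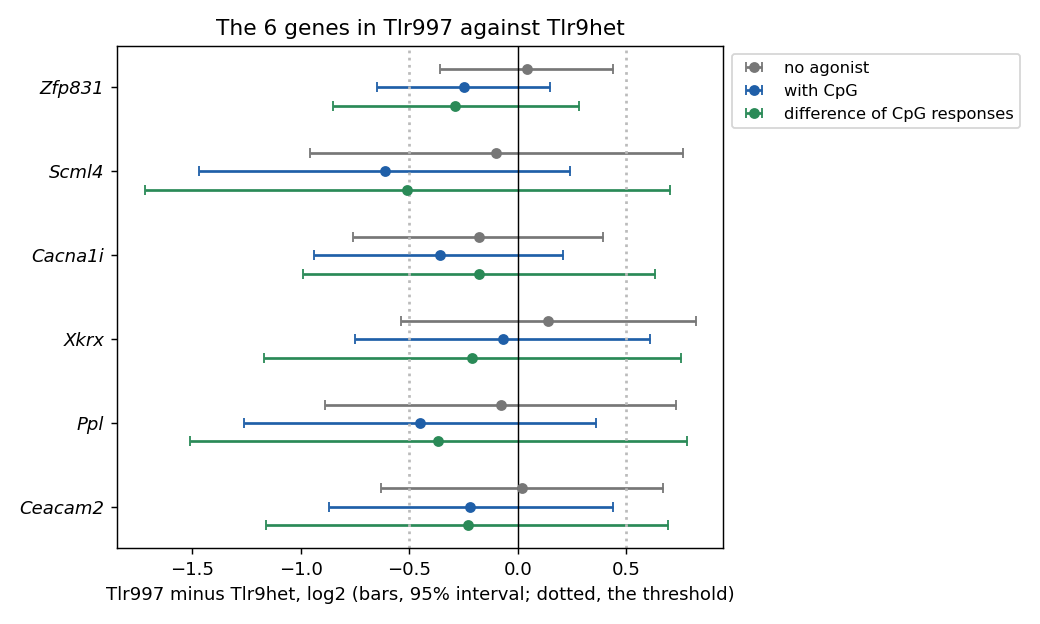
Difference between Tlr997 and Tlr9het for each gene, with its 95% interval, without agonist, with CpG and as the difference of the CpG responses; dotted lines mark the threshold of 0.5. Every interval includes 0.

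The relatives of the 6 genes are given by family. Of the other voltage-gated calcium channel pore subunits 4 passed the filter on low values. In Tlr9het with CpG Cacna1d (-2.46, adjusted p = 5.3e-06 in limma) and Cacna1e (-1.36) fell while Cacna1a (0.95) and Cacna1s (4.29, adjusted p = 1e-09) rose. Cacna1s, the skeletal muscle L-type subunit, also rose in Tlr997 (2.77) and with CL097 (3.16). It was the one among the family genes tested whose difference of CpG responses, Tlr997 minus Tlr9het, was called, at -1.52 (limma adjusted p = 0.029). The genotypes differed by 0.78 without agonist (limma adjusted p = 0.33) and by -0.74 with CpG (limma adjusted p = 0.078), and neither was called. Without agonist its mean was low, at 0.53 log2 CPM in Tlr9het and 1.31 in Tlr997. Of 4 auxiliary subunits tested 2, 2 and 3 were called lower in the responses of Tlr9het, Tlr997 and Tlr779 and 0 higher. Cacnb1 was lower in all 3, at -2.0, -4.17 and -2.01, although it started near 1 log2 CPM. With CpG it was called lower in Tlr997 than in Tlr9het, by -1.85 (limma adjusted p = 0.034). The Tlr997 libraries then averaged -3.12 log2 CPM, below the -2.24 that stands for 3 reads on the average scale. Those of Tlr9het averaged -1.27. This call and the fall of -4.17 therefore rest on few reads. The difference of the Cacnb1 responses to CpG, -2.17, was not called (limma adjusted p = 0.12). Vim, the intermediate filament protein vimentin, was likewise called lower in Tlr997 with CpG, by -0.54 (limma adjusted p = 0.012), with a difference of responses of -0.54 that was not called (limma adjusted p = 0.099).

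Among 9 other genes of the Scm, MBT and PHC families 4 were called lower and 3 higher with CpG in Tlr9het, 3 and 1 in Tlr997, and 2 and 0 with CL097. L3mbtl3, which encodes a reader of methylated lysine, was called lower in all 3 at -2.44, -2.36 and -1.18, and Phc2, a Polycomb subunit, at -1.02, -1.01 and -0.69. Scmh1, another Scm gene, was called in 0 of the 3, at -0.27, -0.12 and 0.01. The other subunits of Polycomb repressive complex 1 went both ways, with 3 of 15 lower and 5 higher in Tlr9het, 3 and 6 in Tlr997, and 3 and 3 of 14 with CL097. Pcgf5 rose by 2.50, 2.09 and 2.15 log2 units, whereas Cbx6 changed by -2.50, -2.40 and -1.05.

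The plakins Plec (-2.61, -2.31 and -2.40) and Macf1 (-2.79, -2.21 and -1.39), giant linkers of the cytoskeleton, fell in all 3 responses, from levels of about 7 to 9 log2 CPM. Dst was called higher in 1 response, Tlr997 with CpG, at 0.80, and Dsp in 0. Of 4 desmosome and intermediate filament partners tested, Vim, the intermediate filament of leukocytes, was lower in all 3 at -1.92, -2.46 and -1.81, as was the plakophilin Pkp3 at -1.97, -2.02 and -1.09. Pkp4 rose by 1.43, 1.37 and 1.29, and Jup, the plakoglobin gene, was called lower in Tlr997 only, at -0.81, with no difference of responses called. Of the XK family, 2 others passed the filter: Xk rose in Tlr9het with CpG and with CL097, by 0.53 each, and Xkr8 was called in 0 of the 3 responses. Ceacam16, the remaining family member that passed, stayed below 0 log2 CPM in the group means of the Tlr7-/- arm, where alone it was tested, and was called higher in Tlr997 with CpG only.

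Genes used as a reference for the resting state fell less. The choice of the 6 genes by the size of their falls set this in advance, and nothing is read from it. Of 23 resting B cell and quiescence genes 15, 16 and 14 were called lower and 2, 2 and 3 higher in Tlr9het, Tlr997 and Tlr779, with medians of -1.63, -1.74 and -0.99. Klf2, which keeps lymphocytes quiescent, was lower in all 3 at -2.26, -2.65 and -1.25, and Ets1, a brake on plasma cell differentiation, at -3.56, -3.61 and -1.79. Ccr7, the lymphoid homing receptor, rose in all 3, by 1.27, 1.16 and 1.63. Of 15 activation genes 14 rose in each response, with medians of 2.08, 1.98 and 1.58, among them Myc (2.77, 2.39 and 2.56) and Nfkbiz (4.68, 3.99 and 4.81). Cd86 was called lower with CpG, at -0.59 in Tlr9het and -0.54 in Tlr997, and was not called with CL097. The difference of CpG responses, Tlr997 minus Tlr9het, was called for S1pr1 (-1.21) and Foxo1 (-0.57) of the resting genes. Among the activation genes it was called for Ccnd2 (-0.65) and Tnfaip3 (-0.62), beside 1.54% of all genes.

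Over the 18 libraries, after the mean of each arm was subtracted, the genes whose pattern was most like that of Zfp831 were Acox3 (Pearson r = 0.997), Cd55 (0.996) and Dgka (0.996). For Cacna1i they were Pde2a, Rasgrp2 and Rnase6 (0.992, 0.991 and 0.99), and for Scml4 Smpdl3a, Gabarap and Pde2a (0.99, 0.989 and 0.988). For Xkrx they were Pik3c2b, Snx20 and Add3 (0.995, 0.994 and 0.993), for Ppl Tgfb3, Fes and Filip1l (0.991, 0.987 and 0.986), and for Ceacam2 Pitpna, Pqbp1 and Twf2 (0.982, 0.981 and 0.98). Between the 6 genes r ranged from 0.896 for Zfp831 with Ceacam2 to 0.986 for Zfp831 with Cacna1i. All libraries share the split into stimulated and unstimulated cells, and between 1401 and 2207 of 11676 genes had r over 0.9 with each of the 6, and the values are given as a description.

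Transcripts listed as markers of other cells also changed. Ppl is best known from epithelia and none of the 6 genes is a marker of B cells, so these markers are given here. The 16 T cell markers summed to 264 to 310 CPM in unstimulated and 132 to 197 in CpG-treated Tlr9het, 240 to 331 and 146 to 151 in Tlr997, and 266 to 313 and 180 to 199 in Tlr779. Cd2, which mature mouse B cells also transcribe, had the highest level of these markers without agonist and so weighed most in those sums. It fell from 7.48 to 3.57 log2 CPM in Tlr9het, whereas Lck went from 6.03 to 6.42 and was not called. Of the 15 T cell markers tested 2 were called lower and 4 higher in Tlr9het and 1 and 5 in Tlr997, and of 7 tested 2 and 1 in Tlr779. Their median changes were 1.08, 0.84 and -0.1, so in Tlr9het and Tlr997 most of them did not follow the fall of the sums. The 8 epithelial markers summed to 22.5 to 28.3 CPM and 10.4 to 16.3 CPM without and with CpG in Tlr9het, 18.1 to 24.7 and 8 to 14.1 in Tlr997, and 17.0 to 23.4 and 8.56 to 11 without and with CL097 in Tlr779, and Krt5 was under -4 log2 CPM in all libraries. Without agonist Epcam weighed most in the epithelial sum of Tlr9het, at 4.34 log2 CPM, and with CpG it stood at 2.84. It was the 1 epithelial marker called lower in each response, of 4 tested in Tlr9het and Tlr997 and 2 in Tlr779, while Cdh1 was not called. The 8 macrophage markers found summed to 250 to 341 and 165 to 222 CPM in Tlr9het, 199 to 498 and 124 to 281 in Tlr997, and 234 to 505 and 122 to 257 in Tlr779. Of the 7 marginal zone B cell markers 5, 5 and 4 were called lower in the responses of Tlr9het, Tlr997 and Tlr779, and Plxnd1 was called higher in each, from 5.77 to 8.57 log2 CPM in Tlr9het. Of the NK cell markers tested 3 of 6 were called higher in Tlr9het, 4 of 6 in Tlr997 and 0 of 3 in Tlr779, and 0 lower. The 8 NK cell markers summed to 6.70 to 14.1 CPM without and 10.7 to 24 with CpG in Tlr9het, 6.44 to 11.7 and 12 to 19.3 in Tlr997, and 7.74 to 10.6 and 5.22 to 10.9 without and with CL097 in Tlr779, with Klra8 under -4 log2 CPM throughout. The 7 neutrophil markers found summed to 54.4 to 112 and 49 to 90.1 CPM in Tlr9het, 54.3 to 175 and 35.6 to 124 in Tlr997, and 35.5 to 87.4 and 21 to 55.1 in Tlr779, and 0 were called in any response, as were 0 of 2 erythroid markers. The purification had depleted cells carrying CD43, CD4, CD8, CD11b, CD11c or Gr-1. The part of these cells in the falls was not tested, and in bulk RNA fewer cells of a type and less RNA per cell cannot be told apart.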

How the data were processed

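Libraries were made by the authors with a stranded mRNA kit and sequenced in paired ends, and per the labels reads were trimmed with Trim Galore 0.6.5, aligned with STAR 2.6.1a to mm10 (GRCm38) and counted with featureCounts of Subread 2.0.1. The authors then normalized the counts (quantile normalization, voom) and deposited log2 CPM, with 1 file per library. The strand setting of the counting is not given in the sources used here. The design had allowed for counts, but the files hold log2 values, so limma 3.58.1 (R 4.3.3) was fitted to them with a trend of variance on mean, in 1 model for the 12 libraries of the Tlr7-/- arm and another for the 6 Tlr779 libraries. Genes over 0 log2 CPM in at least 3 fitted libraries were tested (11494 and 11082), p-values were adjusted by Benjamini-Hochberg over all of them, and intervals cover 95%. No pseudocount was added. The offset that voom adds to each count is already in the values and understates the falls of low genes.

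The 6 genes, the gene lists and the motifs were chosen with earlier results of these data known. Further genes were named as the 10 largest falls with a mean over 2 log2 CPM per response, as family members passing the filter and as the 3 most similar genes. The labels do not say that libraries came from separate mice in each case, so p-values measure the spread between these libraries. Of 6614 genes under -4 log2 CPM in the Tlr7-/- arm, 6306 had 1 value per replicate number and 822 of these a value that differed between the numbers, a trace of an adjustment by replicate number before deposit, which the fit without a block does not account for. Same-numbered libraries without and with agonist deviated together in Tlr9het (correlations 0.51, 0.287 and 0.509) and Tlr779 (0.20, 0.421 and 0.285) but not in each pair of Tlr997 (0.37, 0.083 and 0.025). The numbers may therefore pair the libraries of Tlr9het and of Tlr779. The main fits ignored this pairing, so their standard errors, intervals and p-values treat all libraries as unpaired. A replicate block was run only as an alternative. For the responses and their difference it paired the libraries of Tlr997 by number as well. The alternatives tried were a replicate block, other scalings, filters, thresholds and sets of libraries, and each library left out in turn. Positions are from GENCODE M21 and promoters from RefSeq (GRCm38.p6). Tlr7 wild-type libraries were not analysed here.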

Additional observations from a re-analysis of the deposited data

How the results depend on the processing

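Under every alternative run the 6 genes kept their direction and stayed called in the 3 responses (6 of 6 lower). The choice of the genes by the size of these falls set this in advance, and nothing is read from it. In the main fit 28.2%, 26.0% and 23.6% of all genes tested were called lower in the responses of Tlr9het, Tlr997 and Tlr779. In the 3 comparisons of Tlr997 with Tlr9het 0 of 6 were called under every alternative, except that 1 gene failed the filter when only the CpG libraries were fitted, but signs turned when 1 library was left out. Without agonist the estimates then ran from -0.08 to 0.21 for Zfp831, -0.25 to 0.19 for Ppl, -0.11 to 0.16 for Ceacam2, -0.30 to 0 for Cacna1i, -0.21 to 0.07 for Scml4 and -0.02 to 0.29 for Xkrx. With CpG they ran from -0.45 to 0.17 for Xkrx, -0.76 to 0.09 for Ppl and -0.54 to 0.21 for Ceacam2. The differences of responses ran from -0.59 to 0.03 for Xkrx, -0.68 to 0.17 for Ppl, -0.82 to 0.08 for Scml4, -0.56 to 0.19 for Ceacam2 and -0.37 to 0.14 for Cacna1i. With log2(CPM + 1) the median falls shrank to -4.18, -4.27 and -2.94. Counts over all genes moved more. A fold threshold of 1 gave 4060, 3768 and 2582 calls in the responses of Tlr9het, Tlr997 and Tlr779, 74 for Tlr997 against Tlr9het with CpG and 46 for the difference of responses. Without a filter those last comparisons gave 187 and 78 calls and the unstimulated one 0, as it did with only the libraries of the groups compared. With the replicate block, which also paired Tlr997 by number, the difference of responses gave 328 calls in place of 177, with 0 of 6 genes called. The block changed no call for the 6 genes. Without a variance trend it gave 98. Leaving out 1 library gave 6416 to 6521, 6178 to 6473 and 4700 to 5088 calls in the responses. The unstimulated comparison then gave 2 to 4, with 4 without Tlr997 unstimulated replicate 2 or 3, and that with CpG 187 to 249, with 187 without Tlr9het CpG replicate 1. The difference of responses gave 87 to 295: 295 without Tlr997 unstimulated replicate 3, 87 without Tlr9het unstimulated replicate 1, and 101, 101 and 90 without Tlr9het CpG replicates 1, 2 and 3. The causes were not tested. Low levels limit precision: with CpG the 6 genes stood at about 7 to 64 reads a library on an average scale, and the depth of each library is unknown.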
